A study of Mus musculus with 2 samples.

Results

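Genes of the oligodendrocyte lineage were compared between Phf6 knockdown (KD) and control cortical progenitors. The group holds 9 of the 47643 genes counted, taken by symbol after each gene ID was matched to the GENCODE annotation of the mouse genome GRCm38. The transcription factors Olig1, Olig2, Sox8 and Sox10 and the precursor surface proteins Pdgfra and Cspg4 were treated as the early genes, and Mbp, Cnp and Bcas1 as the myelin genes. Olig1, Olig2, Sox8 and Pdgfra had higher levels in the siPhf6 library than in the siCtl library, between 1.57-fold for Pdgfra and 2.22-fold for Olig2. Cspg4 and Cnp did not differ beyond counting error, and Mbp was 0.806-fold the siCtl level. Sox10 and Bcas1 had at most 6 reads in either library.

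Oligodendrocytes are the glial cells that wrap axons of the central nervous system in myelin. They arise from precursors that carry the receptor PDGFRA and the proteoglycan CSPG4 (also called NG2), divide in response to platelet-derived growth factor and later leave the cell cycle to make myelin proteins. The basic helix-loop-helix factor OLIG2 specifies the lineage and OLIG1 promotes its maturation, while SOX10 and the related SOX8 act on myelin genes. OLIG1 and OLIG2 are not confined to this lineage, since progenitors that also give rise to neurons and astrocytes express them. The RNA measured here came from a mixed culture, so that fewer cells of a type and less RNA per cell cannot be told apart.

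The cells were progenitors from the brain cortex of wild-type E14 mouse embryos, labelled male, that were electroporated with a pool of siRNAs against Phf6 (siPhf6) or with non-targeting siRNA (siCtl) and kept in culture for 5 days. All cells were of the same wild-type genotype and both groups underwent electroporation. The comparison asks which transcripts follow the loss of Phf6, a chromatin-associated protein with zinc fingers that is mutated in Börjeson-Forssman-Lehmann syndrome. The methods state n = 3 per group, whereas 1 library per group was analysed here, and whether a library pools cultures is not given in the sources used here. No difference has a replicate check, and each one compares the libraries rather than the conditions. Levels are given as RPM, which are a gene's reads scaled to 1000000 reads in genes. Ratios are log2 of siPhf6 over siCtl with 1 read added to each count, and their intervals are exact 95% Clopper-Pearson intervals of the raw counts, which cover counting error only.

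The siCtl library held 12155311 reads in genes and the siPhf6 library 10561757, so that 3 reads amounted to 0.247 and 0.284 RPM. Phf6 itself, on the X chromosome (GRCm38 chrX:52912266-52956943), had 1420 reads (117 RPM) in siCtl and 310 reads (29.4 RPM) in siPhf6. Its log2 ratio was -1.99 (-2.17 to -1.81), in the direction that the labels give. The median log2 ratio was 0.01 over the 10130 genes that reached 150 reads in either library, the filter that the study's methods use, and 0.02 over the 16220 genes that reached 10 reads in either library.

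The name of the gene group was checked against markers of oligodendrocytes and their precursors. Sox10, which marks the lineage from precursor to mature cell, had 6 reads in each library. Gpr17, a receptor of committed precursors, had 6 reads in siCtl and 11 in siPhf6. Transcripts that define myelinating cells were at or near 0: Mag had 1 read in siCtl and 0 in siPhf6, Cldn11 had 2 and 3, and Mobp and Opalin had 0 in both. The two-sided 95% counting limit of 0 reads is 0.303 RPM in siCtl and 0.349 RPM in siPhf6 for Mobp and Opalin. Mog, another myelin transcript, was present with 88 and 71 reads. The 9 genes are therefore described below by their symbols and known roles, and no oligodendrocyte is taken to be in the cultures.

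RefSeq windows upstream of the transcription start were matched for 5 of the 9 genes, and these are shown because Olig2, Sox8 and Pdgfra were higher in siPhf6 whereas Cspg4 and Cnp were not past the limits. Coordinates are those of GRCm38.p6, and each window runs 5′ to 3′ on the strand of its gene and stops before the first annotated transcribed base. The Olig2 window is chr16:91225300-91225456 on the plus strand, the Sox8 window chr17:25570687-25570936 on the minus strand, the Pdgfra window chr5:75152001-75152250 on the plus strand, the Cspg4 window chr9:56864854-56865032 on the plus strand and the Cnp window chr11:100574689-100574903 on the plus strand. Capitals mark the E-box CANNTG, the letters that helix-loop-helix factors bind, which reads the same on both strands.
Olig2: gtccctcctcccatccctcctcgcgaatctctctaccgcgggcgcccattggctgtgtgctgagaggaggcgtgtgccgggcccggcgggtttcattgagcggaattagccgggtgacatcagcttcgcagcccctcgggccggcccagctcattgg
Sox8: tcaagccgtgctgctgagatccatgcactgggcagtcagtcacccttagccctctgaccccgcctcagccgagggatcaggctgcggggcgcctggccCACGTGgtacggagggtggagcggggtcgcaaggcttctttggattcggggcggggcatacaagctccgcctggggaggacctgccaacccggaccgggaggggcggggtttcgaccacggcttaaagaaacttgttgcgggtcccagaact
Pdgfra: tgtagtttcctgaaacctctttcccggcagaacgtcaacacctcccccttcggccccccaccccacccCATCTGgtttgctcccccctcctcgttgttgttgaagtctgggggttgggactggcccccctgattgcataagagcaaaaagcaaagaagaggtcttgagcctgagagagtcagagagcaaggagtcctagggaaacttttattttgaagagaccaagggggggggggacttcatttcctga
Cspg4: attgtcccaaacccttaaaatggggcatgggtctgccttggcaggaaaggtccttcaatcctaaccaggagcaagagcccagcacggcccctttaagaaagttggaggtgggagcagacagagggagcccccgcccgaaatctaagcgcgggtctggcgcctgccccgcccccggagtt
Cnp: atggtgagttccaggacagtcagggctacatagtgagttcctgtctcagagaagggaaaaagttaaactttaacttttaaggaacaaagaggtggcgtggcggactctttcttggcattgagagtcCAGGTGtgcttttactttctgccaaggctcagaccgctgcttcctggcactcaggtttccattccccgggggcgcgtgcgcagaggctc
One E-box lies in each of the Sox8 (CACGTG), Pdgfra (CATCTG) and Cnp (CAGGTG) windows and 0 in the windows of Olig2 (157 bases) and Cspg4 (179 bases). Among 32851 RefSeq windows cut to the same length, 66.2% held an E-box at the 250 bases of Sox8 and Pdgfra, 61.4% at the 215 bases of Cnp, 55.3% at the length of the Cspg4 window and 50.8% at the length of the Olig2 window, so a match is common. CA repeats were searched because the study examined them, and a short form (CACACA, or TGTGTG on the other strand) occurs 1 time in the Olig2 window and 0 times in the other 4 windows. That form is present in 12.4% of windows of the Olig2 length.

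Olig2 had the largest difference among the 9 genes. Its 2.530 kb of exon lie on chromosome 16 (chr16:91225457-91228677, plus strand) and share no bases with the exons of another gene. Olig2 had 79 reads (6.50 RPM) in siCtl and 153 reads (14.5 RPM) in siPhf6, a log2 ratio of 1.15 (0.76 to 1.57). The intervals of the levels, 5.15 to 8.10 RPM in siCtl and 12.3 to 17.0 RPM in siPhf6, did not overlap. Of the genes with at least 150 reads in 1 library, 99.4% had a lower ratio than Olig2. Olig2 is the one member that entered this set only through the siPhf6 library, at 153 reads, just above the minimum.

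Olig1 lies 41.1 kb downstream of Olig2 in the same orientation (chr16:91269772-91271933). It had 239 reads (19.7 RPM) in siCtl and 361 reads (34.2 RPM) in siPhf6, a log2 ratio of 0.80 (0.56 to 1.04), or 1.74-fold. The libraries again stood apart, and 97.9% of the genes in the 150-read set had a lower ratio. The ratios of Olig2 and Olig1 differed by 0.36 (-0.11 to 0.84), within counting error. A stretch of 157 exonic bases of Olig1 is shared with the unnamed gene Gm15966, and because the library kit does not mark strand, reads there cannot be told apart by direction. Reads that HTSeq could not assign to a single gene are not in the counts. The 4 genes within 250 kb of the Olig2-Olig1 interval that had at least 150 reads in 1 library (Synj1, Paxbp1, Ifnar2 and Ifnar1) had log2 ratios between -0.21 and 0.18, and none passed 1.5-fold.

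Sox8 and Sox10 belong to the same SOX subfamily and stood at very different levels. Sox8 (chr17:25565892-25570686, minus strand) had 101 reads (8.31 RPM) in siCtl and 144 reads (13.6 RPM) in siPhf6. Its log2 ratio was 0.71 (0.34 to 1.10), or 1.64-fold, and 329 of its exonic bases are shared with the antisense gene 2810468N07Rik. With 144 reads Sox8 fell just short of the minimum of 150 reads, while Olig2 with 153 reads just met it. Sox10 (chr15:79154908-79165240, minus strand) had 6 reads in each library, 0.494 RPM in siCtl and 0.568 RPM in siPhf6. The interval of its log2 ratio ran from -1.70 to 2.11, so that a difference in either direction was not detectable at this depth.

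Pdgfra and Cspg4, the surface proteins by which precursors are usually recognised, had ratios of 0.65 and 0.22. Pdgfra (chr5:75152292-75198215, plus strand), the receptor for PDGF-A, had 60 reads (4.94 RPM) in siCtl and 82 reads (7.76 RPM) in siPhf6. Its log2 ratio was 0.65 (0.16 to 1.16), or 1.57-fold, close to the limit of 1.5-fold, and the intervals of the levels in the 2 libraries overlapped narrowly, reaching up to 6.35 RPM in siCtl and down to 6.17 RPM in siPhf6. Exons of 3 other annotated genes cover 652 of its 10.024 kb of exon. Cspg4 (chr9:56865033-56899870, plus strand), the NG2 proteoglycan, had 97 reads (7.98 RPM) in siCtl and 98 reads (9.28 RPM) in siPhf6. The log2 ratio of Cspg4, 0.22 (-0.20 to 0.64), did not leave out 0 and was 0.94 (0.35 to 1.53) below that of Olig2.

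None of the 3 myelin genes passed 1.5-fold with an interval that leaves out 0, in either direction. Mbp, which encodes the protein that compacts the myelin membrane, had the most reads of the 9 genes in siCtl, 369 reads (30.4 RPM), and 258 reads (24.4 RPM) in siPhf6. Its log2 ratio was -0.31 (-0.55 to -0.08), a difference past counting error and short of 1.5-fold, and 11.2% of the genes in the 150-read set had a lower ratio. The Mbp locus also makes Golli transcripts, which are found in neurons and progenitors, and counts per gene do not separate them from the myelin transcripts. Cnp (chr11:100574904-100591729, plus strand), a phosphodiesterase of the non-compact myelin, had 84 reads (6.91 RPM) in siCtl and 89 reads (8.43 RPM) in siPhf6. The log2 ratio of Cnp was 0.29 (-0.16 to 0.73), and 154 of its exonic bases are shared with Dnajc7. Bcas1 (chr2:170346991-170427845, minus strand), a marker of newly myelinating cells, had 4 reads (0.329 RPM) and 2 reads (0.189 RPM), and the interval of its log2 ratio, from -4.26 to 2.01, left either direction possible.

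**Figure D1:**
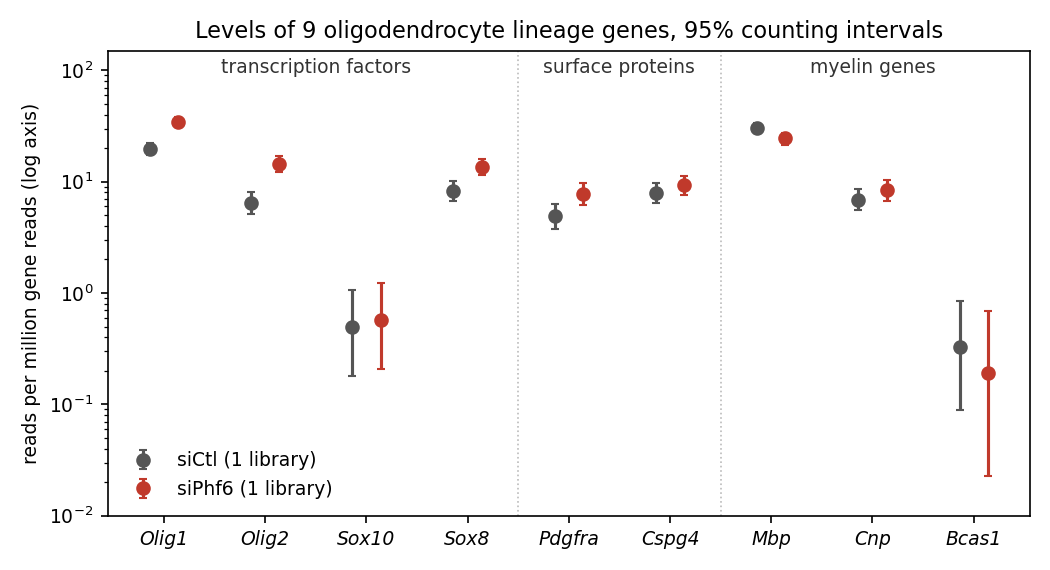
Level of each of the 9 genes in RPM (log axis) in the siCtl library (grey) and the siPhf6 library (red), 1 library per group, with bars for the 95% counting interval. Olig1, Olig2 and Sox8 have intervals that stand apart, those of Pdgfra overlap narrowly, and Sox10 and Bcas1 lie at or below 0.568 RPM, under all other genes.

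**Figure D2:**
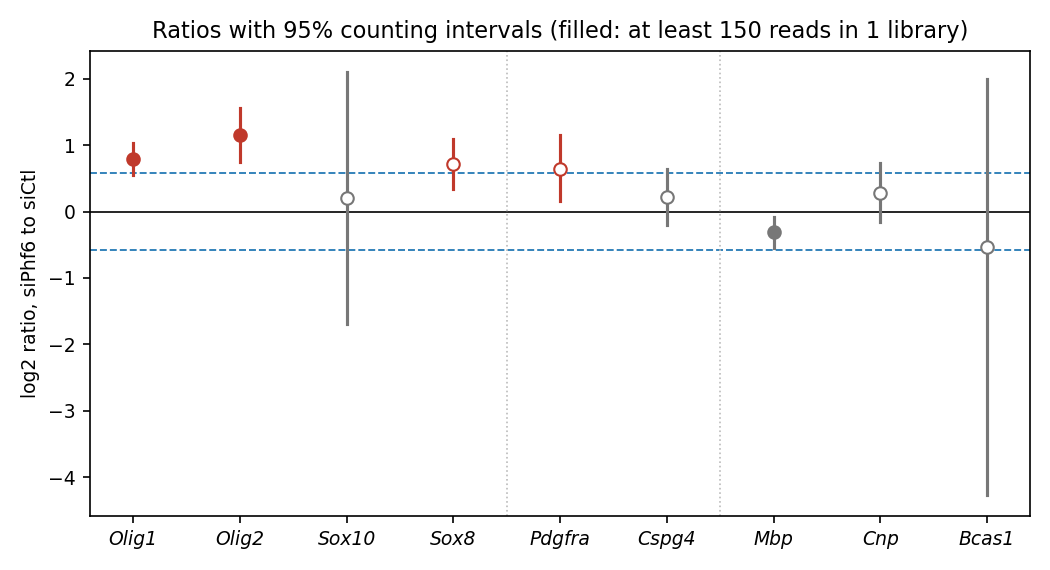
Log2 ratio of siPhf6 to siCtl for each gene with its 95% counting interval, where filled points have at least 150 reads in 1 library, red marks genes past 1.5-fold whose interval leaves out 0, and dashed lines mark 1.5-fold. Olig2 is highest at 1.15, Mbp lies at -0.31 with its interval below 0, and the intervals of Sox10 and Bcas1 span several log2 units.

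Read against the rest of the genes, the members past 1.5-fold with an interval that leaves out 0 were few in number and all in 1 direction. Of the 9 genes, 3 (Olig1, Olig2 and Mbp) had at least 150 reads in 1 library, and 2 of these, Olig1 and Olig2, were higher in siPhf6 by that rule, where the background was 4.18% of the 10130 genes. Olig2 is in this set only through the library in which it was higher, so the count describes these genes and supports nothing, and without Olig2 it is 1 of 2 (Olig1). None of the 3 was lower, against 3.23% of genes. The other 6 (Sox10, Sox8, Pdgfra, Cspg4, Cnp and Bcas1) had under 150 reads in both libraries. Over the 16220 genes with at least 10 reads in 1 library, 7.1% were higher and 4.46% lower, and 4 of the 7 members in that set (Olig1, Olig2, Sox8 and Pdgfra) were higher and 0 lower. Each of these 7 had at least 10 reads in both libraries. The median log2 ratio of the 7 was 0.65, beside 0.02 over all genes of that set, and 6 of the 7 ratios were above 0, beside 52.9% of all ratios. Under a rule on the reads alone (exact binomial test with Benjamini-Hochberg adjustment over the 150-read set, false discovery rate under 0.01 and log2 ratio over 0.25), which called 13.4% of genes higher and 12.4% lower, Olig1 and Olig2 were called higher and Mbp was not called, with the same limit for Olig2.

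Early genes were then set against myelin genes within each library, a comparison in which the scaling of the libraries cancels. Reads of the 6 early genes summed to 582 (47.9 RPM) in siCtl and 844 (79.9 RPM) in siPhf6, a log2 ratio of 0.74 (0.58 to 0.89). The 3 myelin genes summed to 457 reads (37.6 RPM) and 349 reads (33.0 RPM), a log2 ratio of -0.19 (-0.39 to 0.02). Hence the number of early reads per myelin read was 1.27 in siCtl and 2.42 in siPhf6, and the log2 ratios differed by 0.93 (0.67 to 1.18).

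The size of that difference depended in part on Mbp, and more on Mbp than on Olig1. The difference was 0.49 (0.02 to 0.95) without Mbp and 0.88 (0.59 to 1.17) without Olig1, the genes with the most reads in each group. Without both it was 0.45 (-0.04 to 0.93). Cnp supplies nearly all the myelin reads once Mbp is left out, and the log2 ratio of the myelin sum is then 0.25 (-0.19 to 0.69). Among the early genes the 4 transcription factors had 425 and 664 reads, a log2 ratio of 0.85 (0.67 to 1.03), and the pair of surface proteins 157 and 180 reads, a log2 ratio of 0.40 (0.08 to 0.72).

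Single genes were also set against each myelin gene. Against Mbp, the log2 ratio was higher by 1.47 (0.9998 to 1.94) for Olig2, 1.11 (0.77 to 1.45) for Olig1, 1.03 (0.58 to 1.48) for Sox8, 0.97 (0.41 to 1.53) for Pdgfra and 0.53 (0.05 to 1.02) for Cspg4. Against Cnp only Olig2 differed beyond counting error among the 5 early genes with at least 10 reads, by 0.87 (0.26 to 1.48). Olig1 was 0.51 above Cnp with an interval that just touched 0, and Sox8, Pdgfra and Cspg4 differed from Cnp by 0.43 (-0.17 to 1.02), 0.37 (-0.31 to 1.05) and -0.07 (-0.69 to 0.55). These 13 pairs, which also include Olig2 with Olig1 and each of them with Cspg4, carry no adjustment for their number.

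To compare genes with each other, reads were divided by exon length. In siCtl, Olig1 stood first with an RPKM of 9.09 (RPM per kilobase of exon), followed by Mbp at 3.58, Sox8 at 2.66, Olig2 at 2.57 and Cnp at 1.90 RPKM. Cspg4 at 0.669, Pdgfra at 0.492, Sox10 at 0.162 and Bcas1 at 0.0872 RPKM were lower. Neighbours in this order whose counting intervals did not overlap were Olig1 and Mbp, Cnp and Cspg4, and Pdgfra and Sox10. From Mbp through Sox8 and Olig2 to Cnp, the intervals of neighbours overlapped. Those of Mbp (from 3.23 RPKM) and Sox8 (up to 3.24 RPKM) did so only narrowly. Overlap of intervals does not show that 2 genes are level, and the differences between these neighbours were not tested.

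In siPhf6, Olig1 again stood first with 15.8 RPKM, and Olig2 came next with 5.73 RPKM and then Sox8 with 4.37 RPKM, ahead of Mbp at 2.88 and Cnp at 2.32 RPKM. The interval of Sox8, 3.69 to 5.15 RPKM, lay above that of Mbp, 2.54 to 3.26 RPKM. Cspg4 and Pdgfra were level at 0.778 and 0.775 RPKM, and Sox10 and Bcas1 were last at 0.186 and 0.0502 RPKM.

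**Figure D3:**
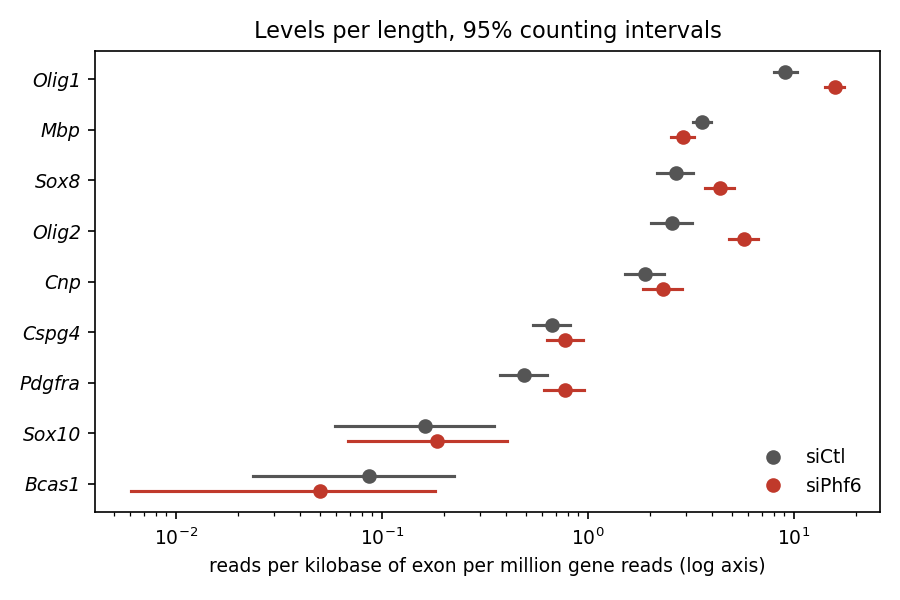
RPKM (log axis) of the 9 genes, ordered by their siCtl level, with bars for the 95% counting interval (grey siCtl, red siPhf6, 1 library each). Olig1 is highest in both libraries (9.09 and 15.8), Olig2 and Sox8 lie above Mbp in siPhf6 only, and Sox10 and Bcas1 lie under 0.2.

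Other genes of the lineage were taken from 4 lists, whose median ratios lay close to that of all genes at the minimum of 150 reads. At that minimum 4.18% of all genes were higher and 3.23% lower. Of 24 other lineage transcription factors, 15 had at least 150 reads in 1 library, of which 0 were higher and 1 was lower, with a median log2 ratio of 0.05 beside 0.01 for all genes. The lower one was Sox6, a SOX factor of the precursor state, with 395 reads in siCtl and 226 in siPhf6 and a log2 ratio of -0.60 (-0.85 to -0.36). The 4 with the most reads per kilobase were Sox11 (log2 ratio -0.43), Id2 (0.11), Sox4 (-0.03) and Nfib (0.16), none past 1.5-fold. Nkx2-2, which acts with OLIG2 in precursors, had 1 read in siCtl and 0 in siPhf6, and Myrf, the factor that switches on myelin genes in mature cells, had 7 and 11.

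Of 24 other precursor genes 12 had at least 150 reads in 1 library, with 0 higher, 0 lower and a median of -0.01. Fyn (-0.02), Cacng4 (-0.30), Lhfpl3 (0.40) and Epn2 (-0.12) had the most reads per kilobase. Of 37 other myelin and mature oligodendrocyte genes, 7 reached 150 reads, with 0 higher, 0 lower and a median of 0.08. Gpm6b (-0.19), Nfasc (0.07), Qdpr (0.08) and Cntn2 (0.18), all of which neurons express as well, had the most reads per kilobase, while 14 of the 37 had under 10 reads in both libraries. Of these, Mobp, Opalin, Aspa, Fa2h and Klk6, had 0 reads in both.

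Ligands and receptors that act on the lineage gave values in both directions. Of 26 such genes 19 had at least 150 reads in 1 library, 1 of them higher and 1 lower, with a median of 0.04. Pdgfb, a ligand of PDGF receptors, had 125 and 250 reads and a log2 ratio of 1.20 (0.89 to 1.52), and reached 150 reads only in siPhf6. Pdgfa, which encodes the main ligand of PDGFRA on precursors, had 316 and 263 reads and a log2 ratio of -0.06 (-0.30 to 0.18). Igf1r, a receptor through which insulin-like growth factor promotes survival and myelination, had 1206 and 594 reads, a log2 ratio of -0.82 (-0.96 to -0.68). The 4 with the most reads per kilobase, Lingo1 (0.21), Tnfrsf21 (-0.45), Bmpr1a (0.07) and Fgfr1 (0.31), stayed within 1.5-fold.

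At a minimum of 10 reads, 7.1% of all genes were higher and 4.46% lower. With that minimum, the lists gained further genes past 1.5-fold, on few reads. These were Tmem100 (17 and 41 reads) among precursor genes, and Tspan2 (65 and 125), Plekhb1 (22 and 38) and Ermn (4 and 13) among the myelin and mature genes, all higher in siPhf6. Among ligands and receptors Fgf2 (23 and 49), Cxcr4 (13 and 25), Lif (36 and 66) and Bmpr1b (85 and 127) were higher and Shh, a ligand that induces Olig2 in the ventral brain, was lower with 88 and 47 reads. The medians at this minimum were 0.09 for 20 transcription factors, 0.26 for 18 precursor genes, 0.08 for 23 myelin and mature genes and 0.06 for 24 ligands and receptors, beside 0.71 for the 5 early members in that set and 0.02 for all genes. Several listed genes entered this set only through siPhf6, where they were higher. These were Gpr17 (6 and 11 reads), Matn4 (7 and 11), Myrf (7 and 11), Hes5 (8 and 16), Pllp (9 and 17) and Ermn. Trf (11 and 8) entered only through siCtl. The medians of the lists and the call of Ermn therefore describe these genes and support nothing.

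**Figure D4:**
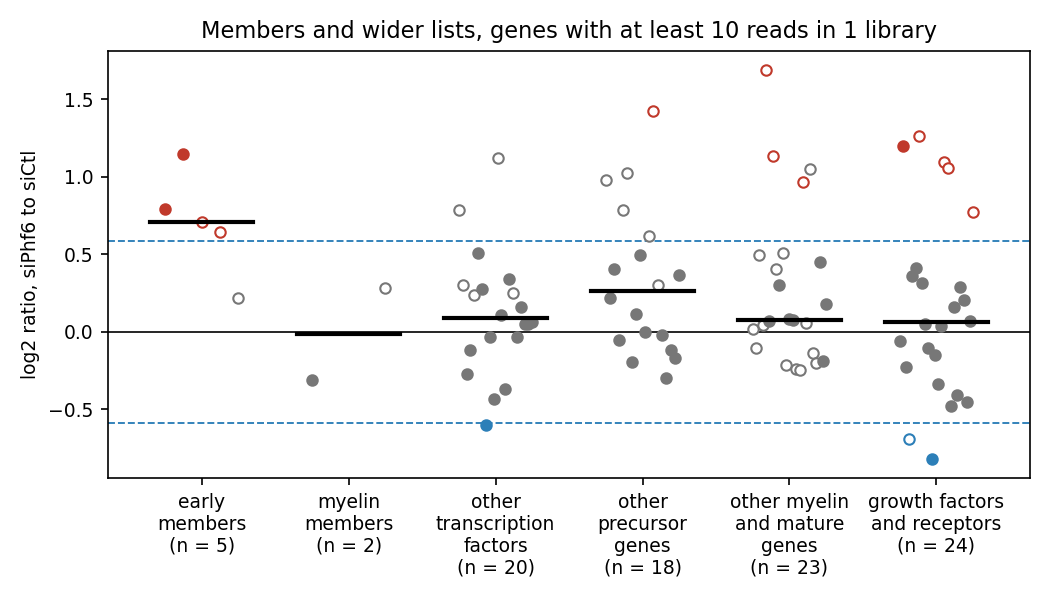
Log2 ratio of siPhf6 to siCtl of each gene with at least 10 reads in 1 library, for the early and myelin members and 4 wider lists, where filled points have at least 150 reads, black bars are medians, dashed lines mark 1.5-fold, and red and blue mark genes higher and lower past it with an interval that leaves out 0. The early members lie between 0.22 and 1.15 with a median of 0.71, while the medians of the 4 lists lie between 0.06 and 0.26.

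Several of the 9 genes are also expressed by other cells, and markers of these were measured in the same libraries. Astrocytes and radial glia, which express Sox8 and, in part, Olig1 and Olig2, had the largest marker sums among the glial lists. The 8 astrocyte markers summed to 172 RPM in siCtl and 224 RPM in siPhf6, with 2 of the 6 that reached 150 reads higher (Aqp4, log2 ratio 0.80, and Slc1a3, 0.71), beside 4.18% of all genes, and Gfap at -0.14. Aqp4 (102 and 155 reads) reached 150 reads only in siPhf6, where it was higher, whereas Slc1a3 did so in both libraries. The 8 radial glia markers summed to 329 and 439 RPM, with 1 of 5 higher at 150 reads (Nes, 0.77), beside 4.18% of all genes. Hes1 was also past the limit on fewer reads (21 and 42). Of the 8 ratios 7 were above 0, and that of Sox2 was -0.22 (-0.49 to 0.04), with 280 and 208 reads. Sox9 and Hes5 stand both in this list and among the lineage transcription factors. Both sums moved in the same direction as Olig1, Olig2 and Sox8, and their part in those differences was not tested.

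Pdgfra and Cspg4 are also made by fibroblasts and mural cells. The 8 fibroblast markers summed to 57.5 RPM in siCtl and 78.5 RPM in siPhf6. Col1a1 was higher (log2 ratio 1.75) and reached 150 reads only in siPhf6 (52 and 154 reads). Also higher were Col1a2 (1.02) and Col3a1 (1.31) on fewer reads, while Foxc1 was lower (28 and 8 reads), the defining marker Dcn was level (47 and 41 reads) and Slc6a13 had 0 reads in both. The fibroblast sum moved in the same direction as Pdgfra, and its part in that difference was not tested. The 8 mural markers summed to 105 and 99.5 RPM, with Pdgfrb at 274 and 245 reads (0.04). Of the 4 at 150 reads 1 was lower, beside 3.23% of all genes. This was Acta2 (-0.92), with 195 and 89 reads and so at 150 reads only in siCtl.

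Markers of the ventral forebrain, where OLIG2 is also made, summed to 279 RPM in siCtl and 275 RPM in siPhf6. Gad1 and Gad2, which all GABAergic neurons express, made up 202 and 221 RPM of these sums, and the other 6 markers 77.5 and 54.2 RPM. Of the 8 markers 4 reached 150 reads, with Lhx6 lower (-0.80) and 0 higher, beside 3.23% and 4.18% of all genes. Dlx1 had 461 and 267 reads and a log2 ratio of -0.58 (-0.81 to -0.36), just short of 1.5-fold, and Nkx2-1 had 2 reads in each library. The 5 neuronal markers summed to 2212 and 2277 RPM with 0 past 1.5-fold. The 4 microglial markers had under 10 reads each and summed to 0.329 and 1.23 RPM, with C1qa at 0 in both.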

How the data were processed

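RNA of cortical progenitors was turned into libraries with the unstranded TruSeq RNA v2 kit. The authors aligned to mm10 by HISAT2, removed duplicates with samtools and deposited whole-number read counts per gene from HTSeq on GENCODE release M9. Versions are not given in the sources used here, and the submitters' processing notes name deepTools 3.5.1. Reads in no gene (25.3% in siCtl, 24.1% in siPhf6) and those that HTSeq could not assign to a single gene (1.99% and 2.04%) were left out of totals.

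Symbols, exon lengths and positions were taken from GENCODE M21 (GRCm38, which is mm10) through version-less gene IDs, which matched 10114 of the 10130 genes with at least 150 reads in 1 library. Counts were scaled by each library's reads in genes and 1 read was added before log2 ratios were taken (Python 3.11.15, numpy 2.4.6, scipy 1.17.1, matplotlib 3.10.9). A gene was called where it passed 1.5-fold and its exact 95% counting interval left out 0. With 1 library per group edgeR's quasi-likelihood test could not be fitted, and no p-value for the conditions was computed. Differences between ratios have exact conditional intervals. Calls and intervals were checked on simulated counts. Alternatives covered scaling (edgeR 4.0.16 TMM and DESeq2 1.42.0 size factors in R 4.3.3, and totals without mitochondrial and the 50 most abundant genes), the read added, the minimum of reads, the limit of size, a binomial rule and the members summed.

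The 9 genes and all lists were chosen with earlier results of these data known. Named were the 9 genes, Phf6 and, from each of 4 lists of other lineage genes, those called and the 4 with the most reads per kilobase. Of 7 marker lists (mural cells, fibroblasts, astrocytes, radial glia, neurons, ventral forebrain, microglia) the sums, the defining markers and those called were named. Other genes named outside this rule (Gpr17, Mag, Cldn11, Mog, Nkx2-2, Myrf, Pdgfa, Sox2, Dlx1, Hes5, Matn4, Pllp, Trf, the genes at 0 and those called only at the minimum of 10 reads) and the neighbours of Olig1 and Olig2 were chosen after their values were seen. Promoter windows came from RefSeq. Some genes of these lists, and 1 further marker list, are not reported here.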

Additional observations from a re-analysis of the deposited data

How the results depend on the processing

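Olig1 and Olig2 remained past 1.5-fold under TMM scaling, DESeq2 size factors, totals without the most abundant genes and 0.5 read added, and all 36 recomputed member ratios lay within their counting intervals. With a minimum of 10 reads in place of 150, 4 members were higher instead of 2, and with a limit of 2-fold 1 was (Olig2). Over all genes 423 were higher and 327 lower, against 1152 and 723 at a minimum of 10 reads, 107 and 48 at 2-fold, and 1359 and 1261 under the binomial rule. The split turned to 360 higher and 438 lower with DESeq2 size factors, which moved the median log2 ratio to -0.04 from 0.01. The 4 wider lists, with 15, 12, 7 and 19 genes at 150 reads, had 1 gene higher and 2 lower, beside 4.18% and 3.23% of all genes. At a minimum of 10 reads, with 20, 18, 23 and 24 genes, 9 were higher and 3 lower, beside 7.1% and 4.46%. At 2-fold 0 were lower. Under the binomial rule 10 were higher and 8 lower, beside 13.4% and 12.4% of all genes. The early minus myelin difference of 0.93 was 0.45 without Olig1 and Mbp, 0.99 as a difference of medians and, in summed reads, 0.92 without Bcas1. The difference of medians also depended in part on Mbp, whose ratio of -0.31 was the myelin median. Without Bcas1, which had 4 and 2 reads, the myelin median was -0.01, beside an early median of 0.68. In settings added after seeing the data it was 0.49 without Mbp and 0.88 without Olig1, so that most of the fall came with Mbp. No alternative turned the direction of Olig1, Olig2 or the early minus myelin difference. No paired analysis was possible because each group had 1 library and the labels carry no replicate numbers, and for the same reason no library could be left out. Depth limited Sox10 and Bcas1, whose intervals spanned several log2 units, and left Sox8, Pdgfra, Cspg4 and Cnp under the minimum of the study's methods.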
